A study of Homo sapiens with 10 samples.

Results

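Heterotrimeric G proteins carry signals from receptors at the cell surface to enzymes and channels inside the cell. The genes described here were measured in T47D breast cancer cells. They are genes of G protein alpha, beta and gamma subunits, of regulators of G protein signalling (RGS), of adrenoceptors and of adenosine receptors. Genes with GPR in their symbol are included, and not all of these encode receptors. Members were chosen by symbol alone, by a rule that uses no measured value, from the probe sets that carry exactly 1 gene symbol. Earlier results of these data were known when it was set, and each gene is represented by its probe set of highest mean signal. The rule gave 60 of 8904 genes, on 89 of 16376 probe sets. They were 10 alpha, 4 beta and 6 gamma subunit genes, 15 genes with RGS in their symbol, 20 with GPR in their symbol, 2 adrenoceptor genes (ADRA2C and ADRB3) and 3 adenosine receptor genes (ADORA1, ADORA2B and ADORA3). Among the 15 RGS genes, RGS9BP encodes an anchor protein for RGS9 and no RGS domain, and among the 20 GPR genes GPRASP1 encodes a protein that sorts receptors after their internalization.

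T47D is a luminal breast cancer cell line, and T47D-Y is a cloned derivative without progesterone receptor (PR). Total RNA was hybridized to 10 U133 Plus 2 arrays (Affymetrix), which form 5 groups of 2. The groups were T47D-Y cells stably expressing wild-type (WT) PR-A, with vehicle (ethanol) or with the synthetic progestin R5020 at 10 nM, T47D-Y cells stably expressing PR-A K388R, with vehicle or with R5020 at the same dose, and T47D-Y cells with vehicle. All cultures were harvested after 24 h, and T47D-Y cells given R5020 were not analysed here. PR-A is the shorter PR isoform, and the K388R mutation replaces the lysine to which the small protein SUMO is attached. The comparisons address whether loss of that site alters the R5020 response, and whether receptor expression alone goes with a different level of a gene. Each PR-A line came from 1 transfected vector, and the sources used here do not say whether it is a single clone or a pool. Differences between lines can thus not be told apart from differences between the cells that were selected. The labels do not say that the 2 arrays of a group came from separate cultures, so p-values measure the spread between these samples, which may be technical.

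In the resting state an alpha subunit holds GDP and is bound to a beta and gamma dimer. An activated receptor exchanges GDP for GTP on the alpha subunit, and alpha and the beta and gamma dimer then part and act on adenylyl cyclases, phospholipases, RhoGEFs and channels. RGS proteins speed up GTP hydrolysis by the alpha subunit and so end the signal. Many GPR genes encode orphan receptors, for which no ligand is agreed on. In breast epithelium these routes carry adrenergic and adenosine signals, among others.

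The luminal identity of the line was seen on all arrays. Of 10 luminal markers 7 were measured, and 6 of these 7 lay above the upper quartile on each array, with TFF1 the exception. Some luminal markers differed between groups, which was not tested. With vehicle and R5020 in WT PR-A cells, FOXA1 had group means of 9.76 and 8.3 and ESR1 of 8.43 and 7.81. In T47D-Y cells these genes had 9.68 and 9.92. KRT19 was at 11.9 in WT PR-A cells with R5020 and 13.49 in PR-A K388R cells with vehicle. EPCAM stayed between 11.26 and 11.68. The mean log2 signal per array was 9.91 to 10.95 over the luminal markers, against 3.79 to 4.08 over 5 leukocyte markers and 4.23 to 4.56 over 3 endothelial markers, none of which lay above the upper quartile on each array. The mean over 6 fibroblast markers was 4.58 to 5.11, and among them COL1A1, a collagen gene, moved with the groups. Its group means were 9.46 and 8.43 in WT PR-A cells with vehicle and R5020, 7.56 and 6.45 in PR-A K388R cells, and 8.63 in T47D-Y cells, and its part in the results was not tested. KRT5, the basal marker measured, was at 3.94 to 4.96. The array medians were 4.59 to 4.69 and the lower quartiles 3.28 to 3.39 (log2 signal). Of the 60 members, 31 lay above the array median on all 10 arrays and 20 under it on all 10. By role, 4 of 4 beta, 8 of 10 alpha and 4 of 6 gamma subunit genes, 8 of 20 GPR genes and 5 of 15 RGS genes lay above the median on every array. GPR183, RGS1, RGS7 and RGS13 lay under the lower quartile on all 10 arrays, so a low value of theirs cannot be read as a level. Each probe set has its own response, so these counts describe signals and do not rank the levels of different genes. The RNA came from whole cultures, in which fewer expressing cells and less RNA per cell cannot be told apart.

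A gene was called changed when limma gave an adjusted p below 0.05 and the change was 1.5-fold or more. By this rule 8 of the 60 genes were called in at least 1 of 6 comparisons, beside 18% of all genes, namely GPR137B, RGS10, GPR143, GPR173, GNG4, GNG11, GNG12 and ADORA2B. The other 52 stayed under 1.5-fold in all 6 comparisons. None of the alpha or beta subunit genes and neither adrenoceptor was among the 8. The vehicle-treated arrays of WT PR-A cells and those of PR-A K388R cells each enter 4 of the 6 comparisons, and the T47D-Y arrays enter 2. The comparisons are thus not independent of each other.

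**Figure D1:**
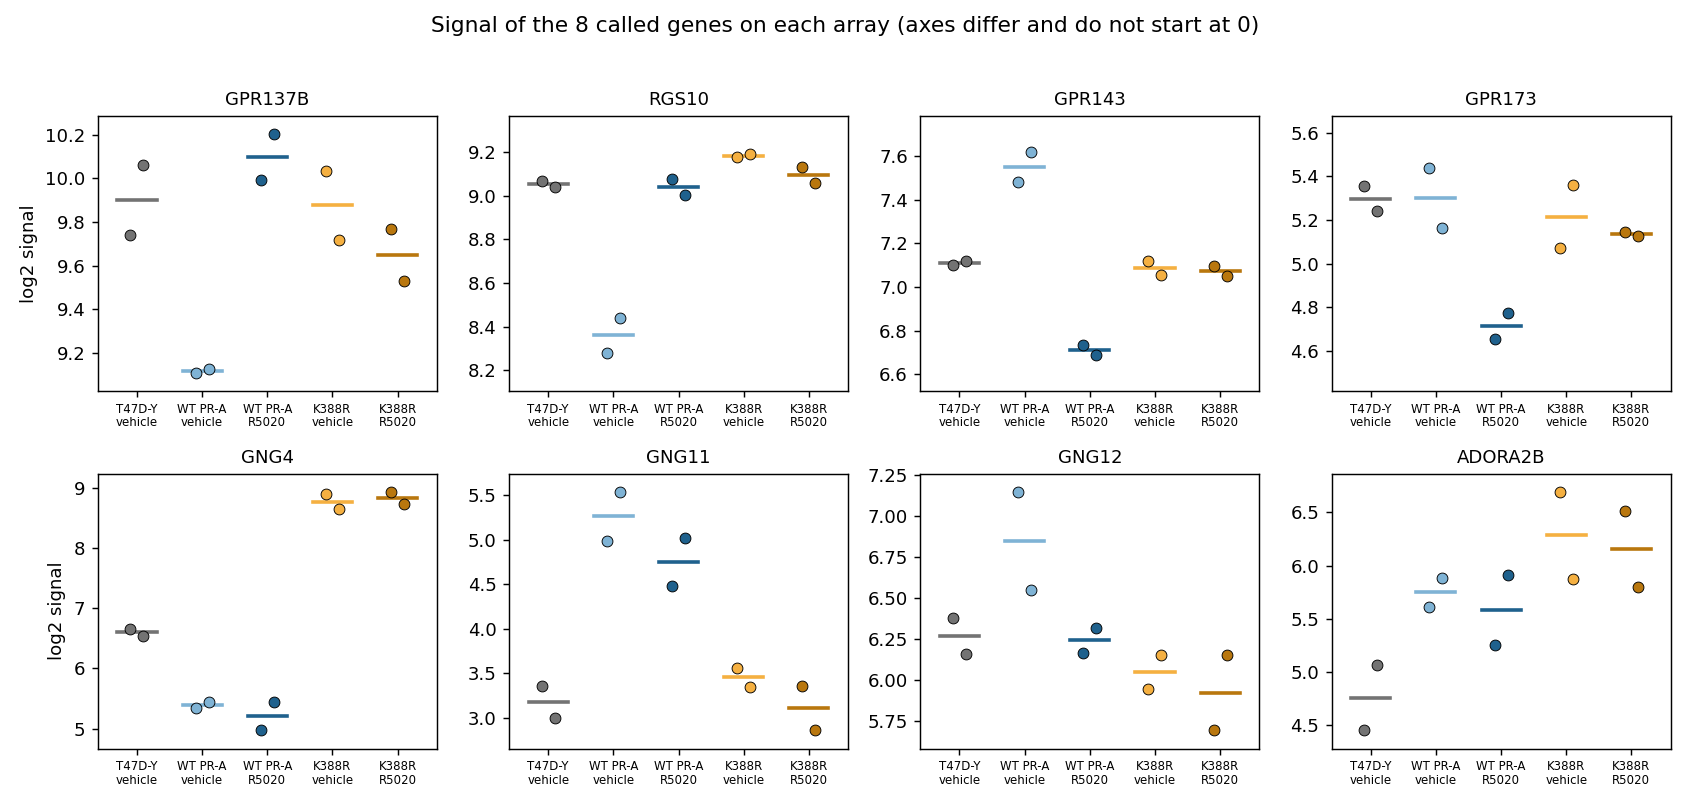
Log2 signal (vertical axes, which differ and do not start at 0) of the 8 called genes on each of the 10 arrays, by group (horizontal axes), with points for single arrays and bars for the means of 2. GNG4 is between 8.64 and 8.93 on the PR-A K388R arrays and between 4.97 and 5.45 on the WT PR-A arrays.

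In WT PR-A cells R5020 raised GPR137B and RGS10 and lowered GPR143 and GPR173, and it left the other 56 genes uncalled. These were 4 of 60 genes, beside 7.87% of all genes called in this comparison (4.4% higher and 3.47% lower). The median change of the 60 genes was -0.09 on the log2 scale, and that of all genes was -0.02. The share of members called was thus near the background. 3 of the 4 are among the 20 GPR genes and the remaining gene is among the 15 RGS genes, and no test of the roles was made.

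GPR137B encodes a lysosomal membrane protein that takes part in mTORC1 control. Its log2 signal was 9.11 and 9.13 in WT PR-A cells with vehicle and 9.99 and 10.20 with R5020. In PR-A K388R cells it was 10.03 and 9.72 with vehicle and 9.77 and 9.53 with R5020, and in T47D-Y cells it was 9.74 and 10.06. Both WT PR-A vehicle arrays thus lay under the other 8 arrays. The change with R5020 in the WT PR-A line was 0.98 ± 0.16 (log2 change ± SE, 1.97-fold, limma adjusted p = 0.00417).

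RGS10 encodes a small RGS protein that acts on alpha subunits of the Gi family. Its log2 signal in WT PR-A cells was 8.28 and 8.44 with vehicle and 9.08 and 9.003 with R5020. PR-A K388R cells had 9.17 and 9.19 with vehicle and 9.13 and 9.06 with R5020, and T47D-Y cells had 9.07 and 9.04. The WT PR-A vehicle arrays were again the lowest of the 10, with no overlap. The response of WT PR-A cells was 0.68 ± 0.11 (log2 change ± SE, 1.6-fold, limma adjusted p = 0.0039), and without WT PR-A vehicle replicate 1 it was 0.58, with an adjusted p of 0.06. The second RGS10 probe set changed by 0.43 (adjusted p = 0.0553) and was not called.

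GPR143 encodes a receptor of melanosome membranes in pigment cells and is the gene of ocular albinism. On the WT PR-A arrays its log2 signal was 7.48 and 7.62 with vehicle and 6.73 and 6.69 with R5020. The PR-A K388R arrays showed 7.12 and 7.05 with vehicle and 7.10 and 7.05 with R5020, and the T47D-Y arrays 7.10 and 7.12. WT PR-A cells held both ends of the range, the highest arrays with vehicle and the lowest with R5020. It fell by 0.84 (log2 change -0.84 ± 0.11, 1.79-fold, limma adjusted p = 0.001), and this call held with each of the 10 arrays left out in turn, as did that of GPR137B. Without moderated variances the GPR137B call was lost (adjusted p = 0.109).

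GPR173 encodes an orphan receptor known mainly from brain. Its log2 signal was 5.44 and 5.16 with vehicle and 4.65 and 4.77 with R5020 in WT PR-A cells. With PR-A K388R it was 5.07 and 5.36 with vehicle and 5.14 and 5.13 with R5020, and in T47D-Y cells it was 5.35 and 5.24. The R5020-treated WT PR-A arrays were the lowest of the 10, not far above the array medians. The change was -0.59 ± 0.14 (1.5-fold, limma adjusted p = 0.0305), at the edge of the fold rule. The call was lost without WT PR-A vehicle replicate 1 (-0.41, adjusted p = 0.291), R5020 replicate 1 (-0.51, 0.199) or R5020 replicate 2 (-0.66, 0.0774), and the second GPR173 probe set showed a change of 0.01.

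The promoters of these 4 genes are shown because progestins act through a receptor that binds DNA. That of GNG11, called between vehicle-treated lines and not with R5020, is added as the called gene with a receptor hexamer in this window. Each sequence is the 250 bases before the gene start on the gene's strand, from RefSeq (GRCh38.p14). Capitals mark the hexamer AGAACA or its complement TGTTCT, the core of progesterone response elements, and the M-box TCATGTG or its complement CACATGA, the motif bound by MITF family factors, which was added after the windows had been read. The windows are chr1:236142289-236142538 on the plus strand for GPR137B, chr10:119542720-119542969 on the minus strand for RGS10, chrX:9765848-9766097 on the minus strand for GPR143, chrX:53048539-53048788 on the plus strand for GPR173 and chr7:93921485-93921734 on the plus strand for GNG11.
GPR137B: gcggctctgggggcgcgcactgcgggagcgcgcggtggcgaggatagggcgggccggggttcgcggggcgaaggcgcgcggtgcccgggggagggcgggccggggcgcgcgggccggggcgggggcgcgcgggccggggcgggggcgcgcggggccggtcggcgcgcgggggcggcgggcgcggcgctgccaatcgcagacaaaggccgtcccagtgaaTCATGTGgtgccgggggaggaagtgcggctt
RGS10: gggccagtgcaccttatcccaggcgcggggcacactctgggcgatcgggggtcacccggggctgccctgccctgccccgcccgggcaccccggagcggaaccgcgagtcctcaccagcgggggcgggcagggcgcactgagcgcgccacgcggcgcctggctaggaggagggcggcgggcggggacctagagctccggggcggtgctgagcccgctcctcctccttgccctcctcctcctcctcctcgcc
GPR143: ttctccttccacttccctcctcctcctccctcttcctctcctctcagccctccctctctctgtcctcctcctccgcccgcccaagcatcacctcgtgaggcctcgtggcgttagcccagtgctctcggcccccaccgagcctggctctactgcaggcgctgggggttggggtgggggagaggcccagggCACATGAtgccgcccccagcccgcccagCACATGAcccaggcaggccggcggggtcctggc
GPR173: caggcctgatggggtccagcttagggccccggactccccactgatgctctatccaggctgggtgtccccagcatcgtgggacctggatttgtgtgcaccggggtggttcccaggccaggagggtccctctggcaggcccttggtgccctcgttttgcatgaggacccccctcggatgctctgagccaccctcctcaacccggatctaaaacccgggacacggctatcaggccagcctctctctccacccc
GNG11: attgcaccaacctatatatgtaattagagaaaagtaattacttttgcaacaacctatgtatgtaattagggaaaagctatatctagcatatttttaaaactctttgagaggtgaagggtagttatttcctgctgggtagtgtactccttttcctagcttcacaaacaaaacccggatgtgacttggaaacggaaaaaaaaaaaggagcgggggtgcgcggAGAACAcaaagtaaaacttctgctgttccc

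Of the 60 members, 50 had a promoter in the table. The hexamer, searched on both strands, was in none of the 4 windows of R5020-called genes. Of the windows of the 8 members called in any comparison it was in 1, or 12.5%. It was in 5 of 50 member windows (GNB5, GNG11, GPR141, RGS1 and RGS13), or 10%. These shares stand beside 12.4% of all 35116 promoters and 9.38% of those whose gene was measured. The full element, made of both hexamers with a spacer of 3 bases between them, was in 0 member windows and in 1 of all promoters. The M-box was in 2 of 50 member windows, once in GPR137B at -31 from the gene start and in GPR143 at -61 and -33. It was in 2.52% of all promoters and 1.95% of those of measured genes. The motif was chosen after these windows had been read, so no comparison can be drawn from these shares. After R5020 in the WT PR-A line GPR137B rose and GPR143 fell. Guanine and cytosine made up 83.2% of the GPR137B window, 77.2% of that of RGS10, 69.6% of that of GPR143 and 64.8% of that of GPR173, with a median of 62.4% over measured genes. A match in these windows is a description, and binding was not measured here.

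Among the members that were not called in WT PR-A cells, GNB1, a beta subunit gene, came close. Its log2 signal was 10.02 on both vehicle arrays and 10.34 and 10.76 on the R5020 arrays. In PR-A K388R cells it was 9.70 and 9.45 with vehicle and 9.86 and 9.72 with R5020, and T47D-Y cells had 10.12 and 10.09. Both R5020 arrays of WT PR-A cells were above the other 8 arrays, with a change of 0.52 ± 0.15 (limma adjusted p = 0.0745). Of the 3 GNB1 probe sets, which changed by 0.52 to 0.59, 1 was called (0.59, adjusted p = 0.0414), while the probe set with the highest mean stands for the gene here. The same second probe set was lower in PR-A K388R than in T47D-Y cells (-0.70, adjusted p = 0.0323), where the chosen one showed -0.53 (adjusted p = 0.0962). ADRA2C, an adrenoceptor that couples to Gi proteins, had 6.41 and 6.46 with vehicle and 5.94 and 6.04 with R5020 in these cells, and fell by 0.44 (adjusted p = 0.0475), under the fold rule. GNG12 had 7.15 and 6.55 with vehicle and 6.17 and 6.32 with R5020, a change of -0.60 that did not pass (adjusted p = 0.142). GNAS, the gene of the alpha subunit that stimulates adenylyl cyclase, had 13.03 and 13.11 with vehicle and 12.77 and 12.84 with R5020, and its change of -0.26 did not pass (adjusted p = 0.298). RGS2, an RGS gene induced by hormones in many tissues, was under the array median on all arrays, and its change of 0.38 did not pass (adjusted p = 0.221). Over the 20 GPR genes 3 were called and over the 15 RGS genes 1, while no call was made among the 10 alpha, 4 beta and 6 gamma subunit genes, the 2 adrenoceptors or the 3 adenosine receptors.

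In PR-A K388R cells none of the 60 genes was called after R5020 by limma, beside 1.66% of all genes (1.25% higher and 0.416% lower). At an unadjusted p under 0.05 there were 4 of the 60 members, beside 1098 of all 8904 genes. The fit without the replicate block also called 0 members. The median change was -0.06, against 0.01 over all genes. GNAZ, an alpha subunit gene of the Gi family, had the smallest p of these members. Its log2 signal was 5.94 and 6.16 with vehicle and 5.58 and 5.67 with R5020, a change of -0.43 (adjusted p = 0.176). The intervals of the 4 genes that R5020 changed in WT PR-A cells include 0 here. In PR-A K388R cells the change of GPR137B was -0.23 (95% interval -0.59 to 0.13) and that of RGS10 was -0.09 (-0.34 to 0.16). GPR143 changed by -0.01 (-0.26 to 0.23) and GPR173 by -0.08 (-0.39 to 0.24).

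**Figure D2:**
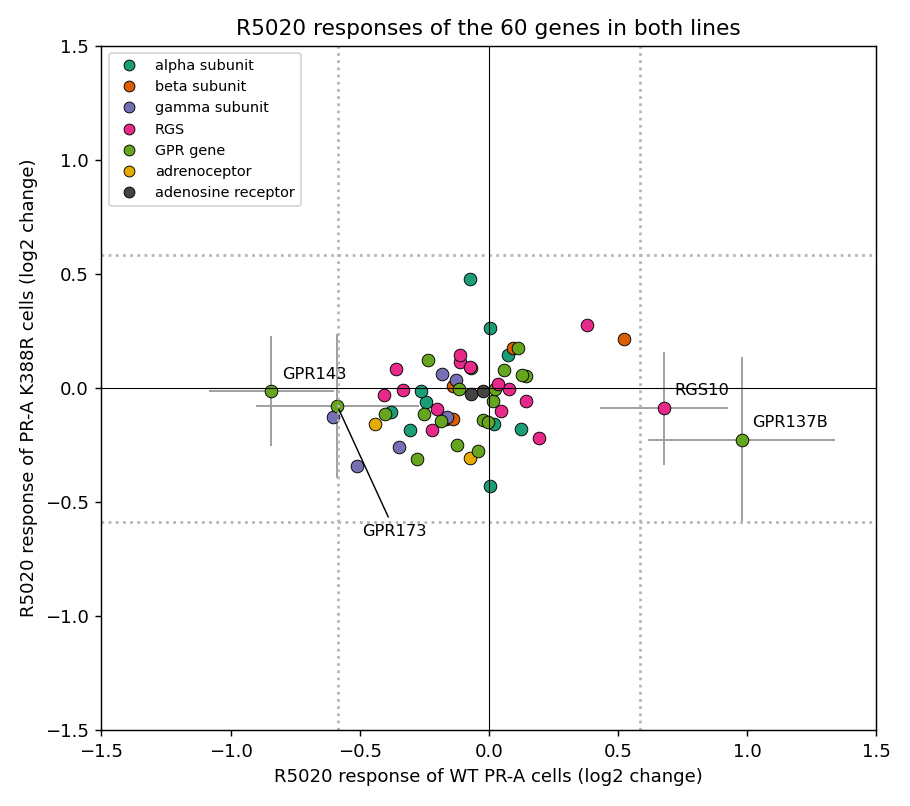
Response to R5020 in the WT PR-A line (horizontal axis) and in the PR-A K388R line (vertical axis) for the 60 genes, both as log2 changes, with 95% intervals for the genes called in WT PR-A cells, dotted lines at 1.5-fold and colours for the gene's role. GPR137B (0.98 and -0.23) and GPR143 (-0.84 and -0.01) lie far from the origin along the WT PR-A axis only.

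The difference between the responses of both lines was tested directly. It was called for GPR137B, RGS10 and GPR143, which is 3 of 60 genes beside 1.88% of all genes (0.719% higher and 1.16% lower). The R5020 response of GPR137B was lower in PR-A K388R cells by a log2 difference of -1.21 ± 0.23 (limma adjusted p = 0.0377). For RGS10 the difference was -0.77 ± 0.16 (adjusted p = 0.0488), and for GPR143, which fell in WT PR-A cells, it was 0.83 ± 0.15 (adjusted p = 0.0354). The difference for GPR173 was 0.51 and did not pass (adjusted p = 0.336), so its response was not shown to differ between the lines. All 3 calls are close to the threshold. Those of RGS10 and GPR143 were lost whichever of the 10 arrays was left out, with adjusted p of 0.0826 to 0.206 and 0.0614 to 0.144. That of GPR137B held without PR-A K388R vehicle replicate 2 or either T47D-Y array and was lost without any of the other 7, with adjusted p of 0.0399 to 0.144 over all 10. The differences themselves ranged from -1.401 to -1.01 for GPR137B, from -0.87 to -0.67 for RGS10 and from 0.74 to 0.91 for GPR143. In the second RGS10 probe set the difference was -0.31 and was not called.

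Vehicle-treated cells were compared between each pair of the 3 lines. Against T47D-Y cells, WT PR-A cells had more GNG11 and less GNG4, GPR137B and RGS10, which is 4 genes beside 8.51% of all genes (4.48% higher and 4.03% lower). PR-A K388R cells had more GNG4 and ADORA2B than T47D-Y cells, which is 2 genes beside 3.83% of all genes (1.35% higher and 2.48% lower). Between both PR-A lines, PR-A K388R cells had more GNG4, GPR137B and RGS10 and less GNG11 and GNG12, which is 5 genes beside 9.12% of all genes (3.49% higher and 5.63% lower). The median changes of the members were 0.01, 0.09 and 0.08, against 0.02, 0.05 and 0.05 over all genes. GNG4, GNG11 and GNG12 are 3 of the 6 gamma subunit genes, and no test of this role was made.

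Gamma subunits anchor the beta and gamma dimer to the membrane, and their sequence contributes to the choice of receptor and effector. GNG4 showed the widest separation of the 60 genes in vehicle-treated cells. Its log2 signal was 5.34 and 5.44 in the WT PR-A line, 8.90 and 8.64 in the PR-A K388R line and 6.66 and 6.55 in T47D-Y cells. The 3 lines did not overlap, with T47D-Y in the middle. With R5020 the arrays showed 4.97 and 5.45 in the WT PR-A line and 8.93 and 8.74 in the PR-A K388R line, and neither response was called (-0.18, adjusted p = 0.691, and 0.06, adjusted p = 0.955). GNG4 was 10.4-fold higher in PR-A K388R than in WT PR-A cells (log2 difference 3.38 ± 0.17, limma adjusted p = 5.51e-06). Against T47D-Y cells it was 4.5-fold higher in PR-A K388R cells (2.17 ± 0.17, adjusted p = 0.000112) and 2.32-fold lower in WT PR-A cells (-1.21 ± 0.17, adjusted p = 0.00154). Of its 4 probe sets 3 were called in each of these comparisons, and over all 4 the difference between the PR-A lines was 0.95 to 3.997. Against T47D-Y cells the probe sets ranged from 0.99 to 3.41 in PR-A K388R cells and from -1.21 to 0.05 in WT PR-A cells, where the mean over all 4 was -0.69 (adjusted p = 0.0132). The fourth probe set had adjusted p of 0.0895 to 0.967. All 3 calls of GNG4 held with each array left out, and both against T47D-Y cells were lost without moderated variances (adjusted p = 0.0733 and 0.0807).

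**Figure D3:**
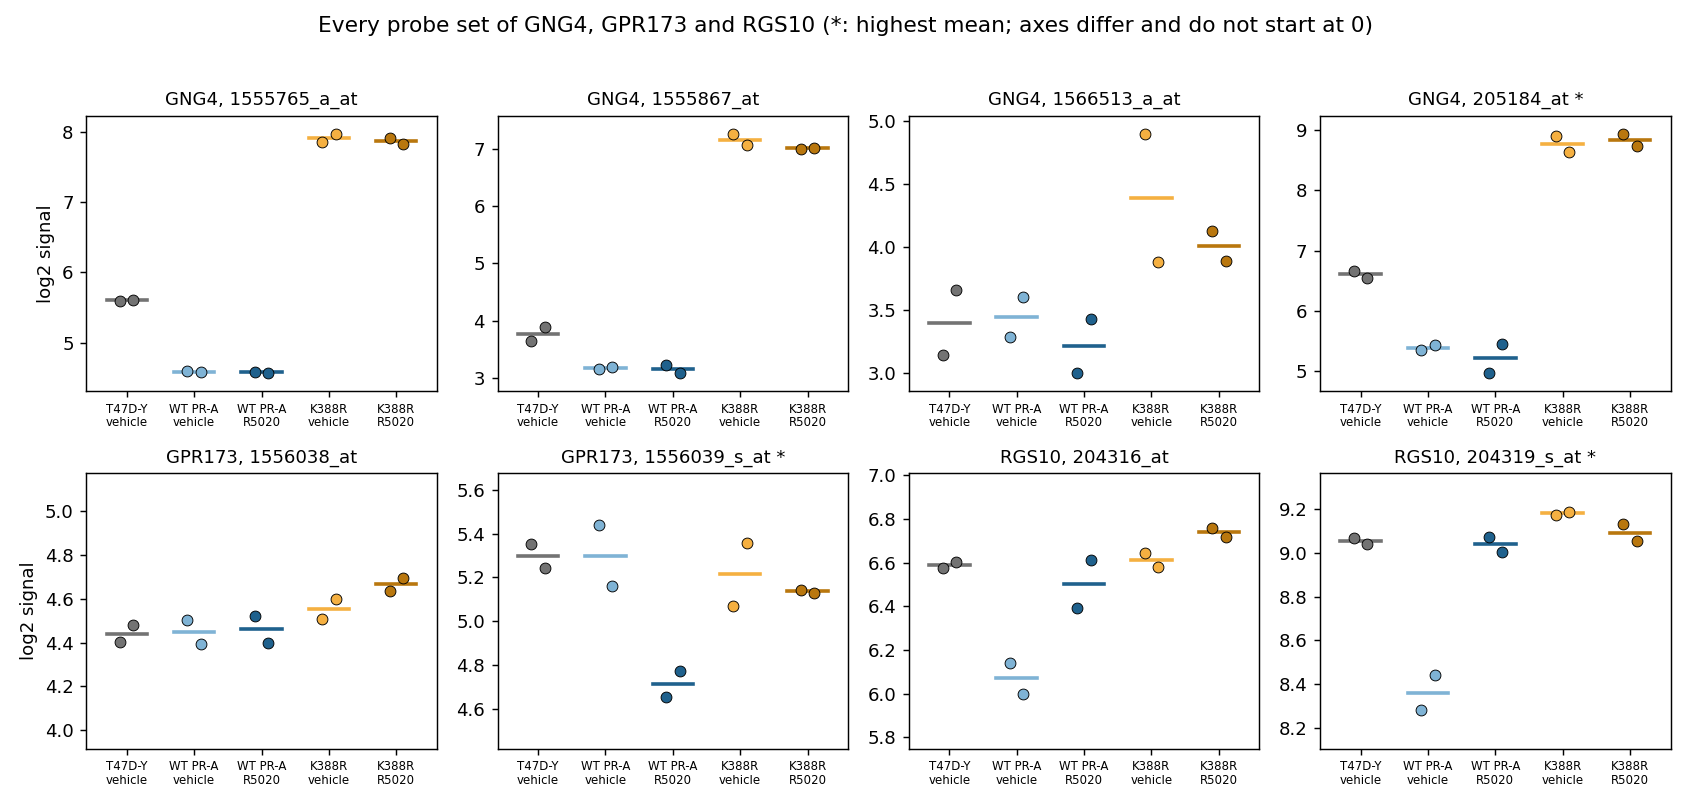
Log2 signal (vertical axes, which differ and do not start at 0) of every probe set of GNG4, GPR173 and RGS10 on each array, by group (horizontal axes), with a star for the probe set of highest mean. The second GPR173 probe set changes by 0.01 with R5020 in WT PR-A cells, where the starred one changes by -0.59.

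GNG11 encodes a gamma subunit with a farnesyl anchor. Its log2 signal with vehicle was 4.99 and 5.53 in the WT PR-A line, 3.56 and 3.34 in the PR-A K388R line and 3.36 and 3.001 in T47D-Y cells. Only the WT PR-A arrays rose clearly above the array lower quartiles of 3.28 to 3.39, so the size of the fold is uncertain. The R5020 arrays kept that order, with 4.48 and 5.02 in the WT PR-A line and 3.36 and 2.86 in the PR-A K388R line. WT PR-A cells exceeded T47D-Y cells by 2.08 ± 0.25 (4.23-fold, limma adjusted p = 0.000651). PR-A K388R cells were lower than WT PR-A cells by a log2 difference of -1.81 ± 0.25 (3.5-fold, adjusted p = 0.00163), and both calls held with each array left out. Without moderated variances both were lost (adjusted p = 0.0786 and 0.0944).

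GNG12 is the third gamma subunit gene called. With vehicle it had a log2 signal of 7.15 and 6.55 in the WT PR-A line, 5.95 and 6.15 in the PR-A K388R line and 6.38 and 6.16 in T47D-Y cells. Both WT PR-A arrays were above the vehicle arrays of the other lines, and replicate 1 was well above replicate 2. The difference between the PR-A lines was -0.80 ± 0.21 (1.74-fold, limma adjusted p = 0.0419). It lost its call without WT PR-A vehicle replicate 1 (-0.42, adjusted p = 0.348), PR-A K388R vehicle replicate 1 (-0.67, 0.2), PR-A K388R vehicle replicate 2 (-0.92, 0.106) or either T47D-Y array (0.0549). The remaining gamma subunit genes, GNG2, GNG7 and GNG10, were called in no comparison.

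Of the 4 genes called with R5020 in WT PR-A cells, GPR137B and RGS10 were also called between vehicle-treated lines. GPR137B was lower in WT PR-A cells than in T47D-Y (-0.78, limma adjusted p = 0.0133) and higher in PR-A K388R than in WT PR-A cells (0.76, adjusted p = 0.0149). RGS10 was lower in WT PR-A cells than in T47D-Y (-0.69, adjusted p = 0.00339) and higher in PR-A K388R than in WT PR-A cells (0.82, adjusted p = 0.0014). The second RGS10 probe set showed -0.52 and 0.54 in these comparisons and was called in neither. GPR143 was higher in WT PR-A cells than in T47D-Y (0.44, adjusted p = 0.0299) and lower in PR-A K388R than in WT PR-A cells (-0.47, adjusted p = 0.0225), under the fold rule in both. PR-A K388R and T47D-Y cells differed by -0.03, 0.13 and -0.02 in GPR137B, RGS10 and GPR143, and none of the 3 was called. The R5020 response, the difference of the responses and these vehicle differences use the same 2 vehicle arrays of WT PR-A cells, so an error in these arrays enters each of them. Both vehicle calls of GPR137B were lost without either of these arrays (adjusted p of 0.0853 to 0.107), and without PR-A K388R vehicle replicate 1 for the difference between the PR-A lines (0.56, 0.121) or T47D-Y replicate 2 for that from T47D-Y cells (-0.58, 0.145). The RGS10 difference from T47D-Y cells was -0.59 without WT PR-A vehicle replicate 1, with an adjusted p of 0.0502.

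Adenosine and adrenergic receptors showed 1 call. ADORA2B, the low-affinity adenosine receptor that raises cyclic AMP, had log2 signals with vehicle of 5.61 and 5.88 in the WT PR-A line, 6.69 and 5.88 in the PR-A K388R line and 4.45 and 5.06 in T47D-Y cells. Both T47D-Y arrays were the lowest of the 10. With R5020 the arrays showed 5.26 and 5.91 in the WT PR-A line and 6.51 and 5.79 in the PR-A K388R line, and replicate 1 and 2 of PR-A K388R cells were apart under both treatments. The difference between PR-A K388R and T47D-Y cells was 1.53 ± 0.34 (2.89-fold, limma adjusted p = 0.0365), while that between WT PR-A and T47D-Y cells was 0.99 and did not pass (adjusted p = 0.116). Between the PR-A lines it was 0.54 (adjusted p = 0.386), so ADORA2B was not shown to differ between them. Its call was lost without PR-A K388R vehicle replicate 1 (1.02, adjusted p = 0.179), T47D-Y replicate 1 (1.15, 0.286), T47D-Y replicate 2 (1.91, 0.0632) or either WT PR-A vehicle array (0.0552). ADORA1, which couples to Gi proteins, was higher in PR-A K388R than in T47D-Y cells by 0.54 (adjusted p = 0.0468), under the fold rule. ADRA2C was lower in WT PR-A cells than in T47D-Y (-0.51, adjusted p = 0.022) and higher in PR-A K388R than in WT PR-A cells (0.46, adjusted p = 0.033), with log2 signals of 6.97 and 6.83 in PR-A K388R and 7.01 and 6.88 in T47D-Y cells. RGS3 was higher in WT PR-A cells than in T47D-Y (0.47, adjusted p = 0.0174) and lower in PR-A K388R than in WT PR-A cells (-0.43, adjusted p = 0.0245), also under the fold rule.

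**Figure D4:**
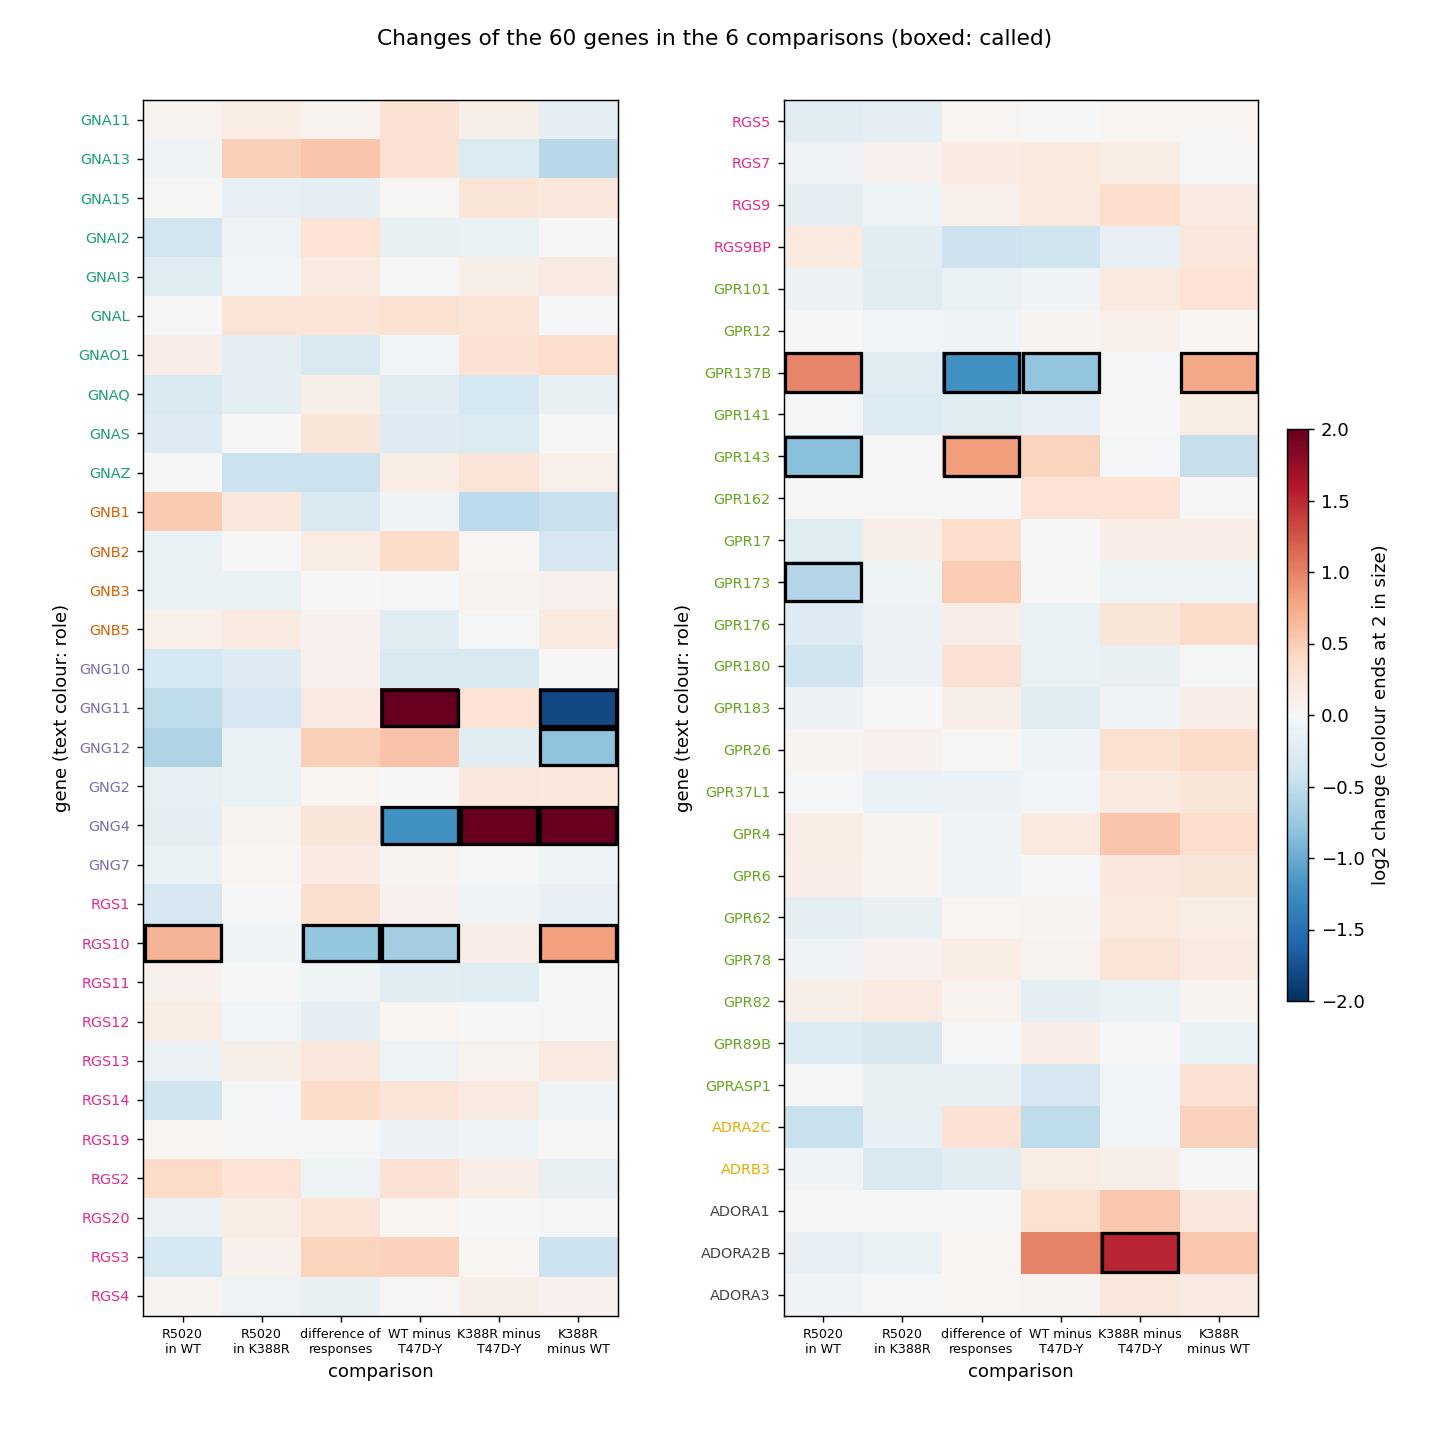
Log2 changes (colour scale) of the 60 genes (vertical axis, text coloured by role) in the 6 comparisons (horizontal axis), with a box around each call. Most cells are pale, and the 18 boxes belong to 8 genes.

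Other parts of the route were described by a list of 26 measured genes that are not members, for adenylyl cyclases, cyclic AMP phosphodiesterases, receptor kinases, phospholipases C beta, RhoGEFs, and chaperones and modulators. With R5020, 1 of 26 was called in each PR-A line, and it was GPSM2 in both, beside 7.87% of all genes in the WT PR-A line and 1.66% in the PR-A K388R line. GPSM2 binds GDP-loaded Gi alpha subunits and helps to orient the mitotic spindle. Its log2 signal was 8.44 and 8.45 with vehicle and 9.97 and 10.01 with R5020 in the WT PR-A line, and 8.27 and 8.23 with vehicle and 9.57 and 9.46 with R5020 in the PR-A K388R line. It rose by 1.55 in the WT PR-A line (limma adjusted p = 3.33e-05) and by 1.27 in the PR-A K388R line (adjusted p = 0.000606). For the difference of the responses 0 of the 26 were called, beside 1.88% of all genes. At an unadjusted p under 0.05 there were 2 of the 26, beside 1223 of all 8904 genes.

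Between vehicle-treated lines 4 of the 26 were called in each comparison with T47D-Y cells, beside 8.51% of all genes for WT PR-A and 3.83% for PR-A K388R. Most of these calls were phosphodiesterases, which break down cyclic AMP, and no test of the group was made. Of the 7 on the arrays, 3 had a lower signal in WT PR-A cells than in T47D-Y, namely PDE4B (-2.32, limma adjusted p = 6.13e-05), PDE4D (-1.45, 0.0051) and PDE8B (-1.79, 0.00013). In PR-A K388R cells 4 of the 7 were lower than in T47D-Y cells, PDE4B (-1.47, 0.00223), PDE4D (-1.13, 0.0345), PDE7A (-0.64, 0.0239) and PDE8B (-1.31, 0.002). Both comparisons share the T47D-Y arrays. PDE8B was near the array lower quartiles in the PR-A lines, so the size of its change is uncertain. PDE4B was at 4.13 and 4.03 on the WT PR-A vehicle arrays, under the array medians of 4.59 to 4.69. The size of its differences from these arrays is thus uncertain too. GPSM3, which binds Gi alpha subunits, was lower in WT PR-A cells than in T47D-Y (-0.96, adjusted p = 0.0114). Between both PR-A lines PDE4B (0.85, 0.0156), GPSM3 (0.92, 0.0134) and ADCY9, an adenylyl cyclase gene (0.87, 0.0303), were higher in PR-A K388R cells, which is 3 of 26 beside 9.12% of all genes.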

How the data were processed

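The deposited values are log2 signals of probe sets, which the authors normalized in Partek Genomics Suite. The method and the background correction are not given in the sources used here, and this can shift dim values most. Medium and RNA kit differ between the labels and the study's methods. Part of the array was used here. Of 16376 probe sets, 12547 had 1 symbol in the platform table, 457 had several and 3372 were not listed. The number of arrays limits the precision, since a group has 2.

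For every probe set the differences of replicate 2 and 1 summed to 0 over the 5 groups (largest absolute sum 3e-04, against medians of 0.228 to 0.255 when the numbers of 1 group were exchanged). The replicate number had thus been removed, so limma 3.58.1 (R 4.3.3) was run on all 10 arrays with group means and the replicate number as a block, with 4 residual and 5.62 prior degrees of freedom. Whether the numbers pair the arrays could not be checked, since the removal fixes the sum of their deviations (r of -0.013 and -0.0682 within the PR-A lines). The labels do not say what a number marks.

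Benjamini-Hochberg adjustment ran over the whole table. Calls needed an adjusted p below 0.05 and a 1.5-fold change or more. A gene was represented by its probe set of highest mean. Named were all members called in an R5020 comparison, up to 8 per vehicle comparison and the member of smallest p per role. GNAS, GNB1, RGS2, ADORA1, ADORA2B and called genes of the pathway list were named as well. RGS3 was named beyond this rule, for an adjusted p below 0.05 with changes under 1.5-fold. Members and lists were chosen with earlier results of these data known. All 60 members matched RefSeq by gene identifier. Alternatives were no block, an intensity trend, unmoderated contrasts, scaling by quantiles or by array medians, removal of the dimmest 40% of probe sets, a 2-fold minimum, compared groups alone, the mean of a gene's probe sets, and each array left out. The fit was checked on simulated data. Figures were drawn with matplotlib 3.10.9.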

Additional observations from a re-analysis of the deposited data

Results flagged for a closer look

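The R5020 responses of the PR-A lines differed, by limma's test of the difference itself, in 3 of the 60 genes, beside 1.88% of all genes. The difference (PR-A K388R minus WT PR-A, log2 scale) was -1.21 for GPR137B, -0.77 for RGS10 and 0.83 for GPR143, with WT PR-A responses of 0.98, 0.68 and -0.84. The RGS10 and GPR143 calls were lost with any of the 10 arrays left out, and that of GPR137B held in 3 of 10. Both vehicle-treated PR-A lines differed in 5 of the 60 genes, again by a test of the difference itself, beside 9.12% of all genes, so the share of members was not above the background. PR-A K388R minus WT PR-A was 3.38 for GNG4, 0.82 for RGS10, 0.76 for GPR137B, -0.80 for GNG12 and -1.81 for GNG11. With an array left out, the GNG12 call held in 5 of 10 cases, that of GPR137B in 7 and the other 3 in all 10. GPR137B and RGS10 appear in both sets, and the same WT PR-A vehicle arrays enter both.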

How the results depend on the processing

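No gene result reversed in 340 values under an alternative. Of the 18 calls described, 1 (GNG4 between the PR-A lines) held under every alternative other than leaving out an array, and 8 held with each array left out. The fit without the replicate block called the same numbers of members, 4 for the WT PR-A response and 0 for the PR-A K388R response, 3 for the difference of the responses, and 4, 2 and 5 in the vehicle comparisons of WT PR-A with T47D-Y, PR-A K388R with T47D-Y, and both PR-A lines. Without moderated variances these were 2 (WT PR-A response), 0 (difference), and 1, 0 and 2 in the vehicle comparisons, with 4 residual degrees of freedom. A fold of 2 left 0, 1, 2 and 2 for the WT PR-A response, the difference, WT PR-A against T47D-Y and both PR-A lines. With the arrays of the compared groups alone and the replicate block, 1 member was called for the difference and 1 for PR-A K388R against T47D-Y. With the mean of all probe sets of a gene, 2 were called in the WT PR-A response. Leaving out each array gave 2 to 5 and 0 to 0 in the R5020 responses, 0 to 1 for the difference, and 2 to 4, 1 to 2 and 3 to 5 in the vehicle comparisons. The lowest counts of 2 (WT PR-A response and WT PR-A against T47D-Y) and 3 (both PR-A lines) came without WT PR-A vehicle replicate 1, and that of 3 also without PR-A K388R vehicle replicate 1. The count of 1 for PR-A K388R against T47D-Y came without either WT PR-A vehicle array, either T47D-Y array or PR-A K388R vehicle replicate 1. Other scaling moved the median of all probe sets by under 0.1, and quantile normalization and centring each ended the call of GPR173, at -0.56 and -0.58, and quantile normalization that of GNG12, at -0.74. GNG11 and the 4 members under the lower quartile are limited by signal near background.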
